A study of Drosophila melanogaster with 24 samples.

Results

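In this comparison the germline source was held constant and the source of the gut microbiome differed. F2-M18-G25 males had received the microbiome of cold-treated F1 flies, which had lived at 18 °C, and F2-M25-G25 males that of control F1 flies, which had lived at 25 °C. Both groups descended from control F1 germlines and were themselves reared at 25 °C. The members are the libraries whose names in the library list of the study read F2-18-25 and F2-25-25, microbiome first and germline second, which gave 4 replicates (A to D) in each group and 8 of the 24 samples of the series, 22 of which have values. The stock was isogenic, F2 eggs were cleaned before transfer to boiled food that carried the faeces of F1 males, and each library holds the total RNA of 20 whole males no more than 16 h old. The transferred community was thus a faecal one that was not defined by species or amount, and no germ-free group was sequenced. The F1 males had left the faeces at their own temperature (18 or 25 °C), so the food also differed in temperature before the eggs were added. Beside the comparison stand its counterpart in the cold-history germline (F2-M18-G18 against F2-M25-G18, with 4 and 3 libraries) and the F1 flies themselves (F1-18 reared at 18 °C against F1-25 reared at 25 °C, with 4 and 3 libraries). These 3 comparisons share no library.

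The sources conflict on the crossed F2 groups. The library list gives F2-18-25 as microbiome of cold-treated and germline of control flies, whereas the titles and sample attributes deposited with the same libraries give the germline of cold-treated and the microbiome of control flies. The grouping here follows the library list, and the study's supplementary description of the F2 bacterial samples names the groups in the same order. With the crossed groups exchanged, the comparison would set the 3 libraries called F2-M25-G18 here against F2-M25-G25.

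Fruit flies carry a simple gut community, dominated in the laboratory by acetic acid bacteria and lactobacilli, which they take up with the food. In the midgut these bacteria and their cell-wall fragments are sensed by peptidoglycan recognition proteins of the Imd pathway, whose transcription factor Relish drives antimicrobial peptide genes, while the oxidase Duox releases reactive oxygen into the lumen. The community is known to affect digestive enzymes, epithelial renewal, lipid stores and insulin signalling of the host. Gene groups for these functions were therefore followed, together with groups for muscle, eye, testis, accessory gland, cuticle and mitochondria.

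Values are those deposited, a normalized signal for each gene that is close to a read count after all libraries were brought to 1 size. The reads behind the 8 libraries, estimated from the steps between low values, ranged from 2479533 to 9296420, with 1 read worth between 0.398 and 1.56 units. These estimates conflict with the aligned read totals in the study's library list, which differ from them library by library and are several times lower for replicate C of F2-M18-G25. For each of the 8 libraries, the estimate was closer to the total that the list gives for another library. The closest total for replicate A of F2-M18-G25 was that of replicate B of F2-M25-G18. For replicate A of F2-M25-G25 it was that of replicate C of F2-M18-G18. Whether the columns of values carry the names of that list was not tested. The cause of the conflict was not tested either, and the depth and the naming of each library are therefore uncertain. The estimate for replicate A of F2-M25-G25 is the least certain, since 42.7% of its low values lay within 0.1 of a whole read, against 83.7% to 100% in the other libraries. In 7150 of the 11314 genes tested (63.2%) what the table lists for F2-M25-G25 replicates C and D equalled the mean of A and B plus a whole number. These calculated values were treated as missing, which left 2 measured F2-M25-G25 libraries in those genes and 4 in the other 4164.

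Some libraries stood apart from their group. In the 4164 genes without calculated values, replicate C of F2-M25-G25 had rank correlations of 0.70 to 0.83 with its own group but of 0.892 with replicate D of F1-25. Replicate D of F2-M25-G25 reached 0.814 to 0.843 within its group and 0.885 with replicate D of F2-M25-G18. Over all 11314 genes, replicate D of F2-M18-G25 correlated at 0.981 to 0.985 with its own group and at 0.988 with replicate C of F2-M18-G18. F2-M25-G25 replicates A and B correlated at 0.990 with each other. Each of them also correlated at 0.988 with replicate C of F2-M18-G25, which reached 0.983 to 0.990 within its own group. Whether replicate D of F2-M18-G25 and replicates C and D from F2-M25-G25 carry the right labels was not tested. They were kept under their labels, and the called genes and the medians of the gene groups that moved with them are given with and without these 3 libraries.

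Larval serum protein genes of the fat body showed how far replicate D differed. These genes encode the storage proteins Lsp1alpha, Lsp1beta, Lsp1gamma and Lsp2 of the larva, and Fbp1 and Fbp2 are further fat body genes. Their summed signal was 19453, 8994, 15259 and 99949 in replicates A to D of F2-M18-G25, against 12740 and 12697 in F2-M25-G25 replicates A and B. Replicates A to C thus lay on both sides of the F2-M25-G25 libraries, and only D lay far above them. The same sum ranged from 95802 to 114288 in F2-M18-G18 and from 68152 to 85359 in F2-M25-G18, so that replicate D had the level of the flies with a cold-history germline. Fbp1 alone measured 40990 in replicate D and between 3719 and 7782 in A to C. The 5 fat body markers (Lsp2, Fbp1, Fbp2, apolpp and NLaz) followed the same order, with a summed signal of 77176 in replicate D against 8120 to 16418 in A to C, and 11980 and 12093 in A and B of F2-M25-G25. In whole flies, fewer cells of a type and less RNA per cell cannot be told apart.

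Gut serine proteases marked replicate C of F2-M25-G25. The 20 Jonah proteases and trypsins without calculated values, a subset picked after their values were seen, summed to 196, 127, 142 and 125 in replicates A to D of F2-M18-G25, against 126, 222, 3104 and 398 in replicates A to D of F2-M25-G25. Replicate C was in the range of the F1-25 libraries, which measured 2981 to 7259, whereas A and B were close to F2-M18-G25. BetaTry, a digestive trypsin, measured 1011 in replicate C and 28.2, 52.2 and 52.1 in A, B and D of F2-M25-G25, against 9.48 to 17.9 in F2-M18-G25. Among markers of other cells, egg yolk protein genes stayed between 11.6 and 29.4 in F2-M18-G25 and between 22.1 and 34.6 in F2-M25-G25 as a sum over Yp1 to Yp3, and the markers of testis germline summed to 3361 to 3908 in F2-M18-G25, against 3906 and 3634 in A and B of F2-M25-G25.

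**Figure D1:**
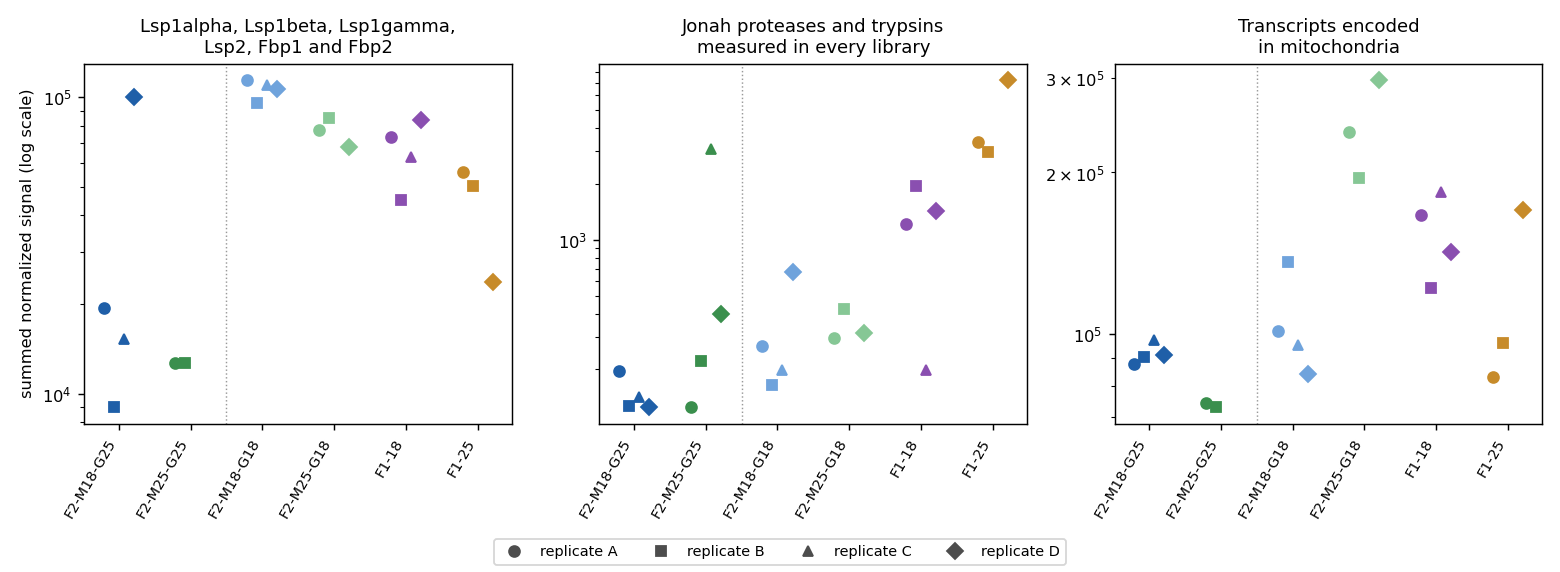
Summed normalized signal (log scale) of the larval serum protein genes with Fbp1 and Fbp2 (left), of the 20 gut proteases without calculated values (middle) and of the 11 transcripts encoded in mitochondria (right) in every library, with symbols for replicates A to D. Replicate D of F2-M18-G25 sits at 99949 in the left panel beside 8994 to 19453 for A to C, and replicate C of F2-M25-G25 at 3104 in the middle panel beside 126 to 398 for the others. Calculated values of F2-M25-G25 are not drawn.

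Few genes were called for microbiome source in the control germline. Of 11314 genes tested with limma on log2(value + 2), 7 were called at a Benjamini-Hochberg adjusted p under 0.05 (0.0619%). Of these, 4 were higher in F2-M18-G25 (0.0354%), namely CG6770, CG45011, fok and Bacc, and 3 were lower (0.0265%), namely Cyp18a1, CG14606 and Sfp96F. The median log2 fold change over all genes was -0.01, with 48.2% of genes above 0. The count depends on the libraries, the grouping and the model used, with 35 genes called from F2 libraries only, 103 with the calculated values kept and 799 with the crossed groups exchanged. It was 4 with values scaled to equal library totals. With a block on the replicate letters, which share no stated origin, it was 0, so that none of the 7 kept its call. The 7 calls also rest on individual libraries. None was left without replicate A or without replicate C of F2-M18-G25, where 803 and 1016 genes still had an unadjusted p under 0.05. Without replicate B of F2-M18-G25 there were 2, without replicate A of F2-M25-G25 there were 2, and without replicate C of F2-M25-G25 there were 3. With all 3 libraries that stand apart left out, 3 genes were called, 2 of them (fok and Sfp96F) among the 7. The third was CG42752, which was chosen for naming after its values were seen. It measured 58.5, 51.9, 61.0 and 39.3 in replicates A to D of F2-M18-G25, against 31.1, 27.4, 36.2 and 36.4 in replicates A to D of F2-M25-G25, with no overlap.

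**Figure D2:**
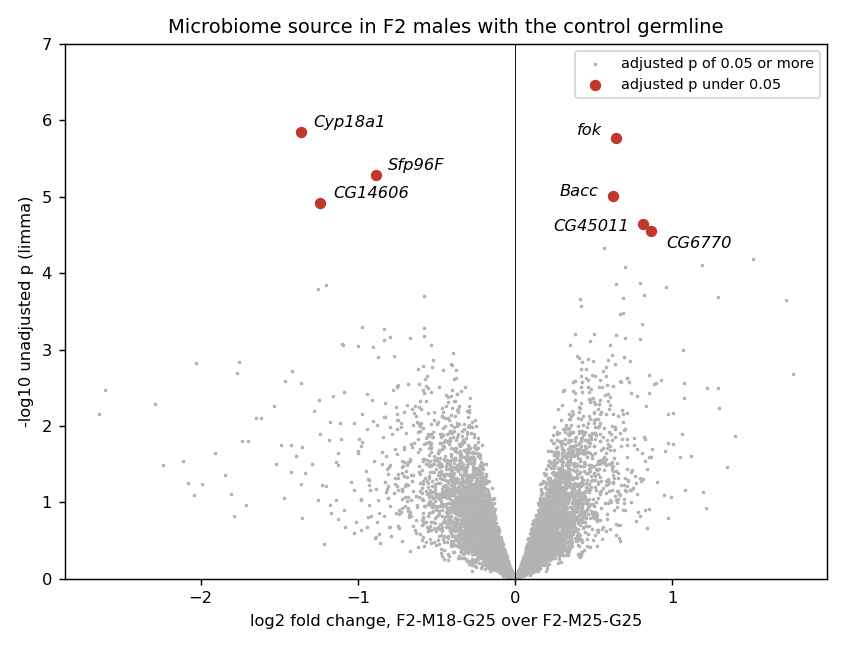
Log2 fold change of F2-M18-G25 over F2-M25-G25 (x axis) and -log10 of the unadjusted limma p (y axis) for the 11314 genes tested, with the 7 genes at an adjusted p under 0.05 named. Cyp18a1 (-1.36) and fok (0.64) have the lowest p of the genes below and above 0.

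Cyp18a1 had the lowest p. It encodes the cytochrome P450 that inactivates the moulting hormone 20-hydroxyecdysone by hydroxylation, and lies on chromosome X (18688538 to 18693042, minus strand, release 6 of the fly genome). Its signal was 15.9, 23.1, 16.3 and 14.7 in replicates A to D of F2-M18-G25, against 43.7, 41.6, 77.6 and 35.9 in replicates A to D of F2-M25-G25. The groups did not overlap, and the highest F2-M18-G25 library was below the lowest F2-M25-G25 library. Means were 17.5 ± 3.79 and 49.7 ± 18.9 (SD, n = 4 each), with a log2 fold change of -1.36 (SE 0.21, 95% interval -1.80 to -0.93, limma adjusted p = 0.00972). The value was -1.15 without the 3 libraries that stand apart (adjusted p = 0.0957), and the adjusted p was 0.0564 without replicate A and 0.052 without replicate C of F2-M18-G25. Cyp18a1 was the 1 called gene among the 70 cytochrome P450 genes tested, where 0.0265% of all genes were called lower.

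Sfp96F encodes a seminal fluid protein that males transfer at mating and lies on chromosome 3R (25830061 to 25830228, minus strand). It measured 21.0, 22.8, 24.5 and 32.2 in replicates A to D of F2-M18-G25, against 52.1, 50, 54.4 and 36 in replicates A to D of F2-M25-G25. The libraries that came closest to the other group were the D replicates, and no library crossed over. The log2 fold change was -0.89 (SE 0.15, limma adjusted p = 0.0197), from means of 25.1 ± 4.94 and 48.1 ± 8.27 (SD, n = 4 each). It was -1.10 (adjusted p = 0.0186) without the 3 libraries. The call was lost without any one of replicates A, B or C of either group (adjusted p = 0.0531 to 0.099) and kept without either replicate D.

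CG14606, on chromosome 3R (7214339 to 7217083, minus strand), measured 11.1, 13.3, 11.8 and 11 in replicates A to D of F2-M18-G25, against 25.2, 29.7, 42.2 and 27.1 in replicates A to D of F2-M25-G25. The F2-M18-G25 libraries were tight and all lower. The log2 fold change was -1.24 (SE 0.22, limma adjusted p = 0.0275). The call held in 1 of 8 fits that each left out 1 library, the one without replicate D of F2-M25-G25 (adjusted p = 0.0462 to 0.125 over the 8). Without the 3 libraries that stand apart the value was -1.07 (adjusted p = 0.318).

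Among the genes that were higher in F2-M18-G25, fok (fledgling of Klp38B, chromosome 2L, 20079270 to 20085070, minus strand) had the lowest p. It measured 792, 813, 785 and 868 in replicates A to D of F2-M18-G25, against 465 and 582 in F2-M25-G25 replicates A and B. The log2 fold change was 0.64 (SE 0.10, limma adjusted p = 0.00972), a 1.56-fold difference, and 0.61 without the 3 libraries (adjusted p = 0.0451). The call depended on replicate A of F2-M25-G25, without which the value was 0.48 (adjusted p = 0.172), and it was also lost without replicate A (0.0564) or C (0.0507) of F2-M18-G25.

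Bacc (Bacchus, chromosome 2L, 2752445 to 2757975, plus strand) measured 780, 742, 714 and 713 in replicates A to D of F2-M18-G25, against 434 and 525 in F2-M25-G25 replicates A and B. Its log2 fold change was 0.62 (SE 0.11, limma adjusted p = 0.0274). Of the 6 fits that each left out 1 measured library, 2 kept the call, with adjusted p from 0.0471 to 0.251 over the 6. The call was lost without replicate A of F2-M25-G25 and without replicate A, B or C of F2-M18-G25. Without the 3 libraries that stand apart the value was 0.64 (adjusted p = 0.0588).

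CG6770 (chromosome 2L, 12045343 to 12046118, minus strand) was the most strongly expressed of the 7. It measured 1688, 1768, 1672 and 2125 in replicates A to D of F2-M18-G25, against 838 and 1163 in F2-M25-G25 replicates A and B (log2 fold change 0.87, SE 0.16, limma adjusted p = 0.0458). For fok, Bacc and CG6770 the F2-M25-G25 mean rests on the 2 measured libraries A and B, of which A was the lower in each. CG6770 stayed called in 1 of the 6 fits that left out 1 measured library, the one without replicate B of F2-M25-G25 (adjusted p = 0.0492), and its adjusted p reached 0.323 without replicate A of F2-M25-G25. Without the 3 libraries the value was 0.79 (adjusted p = 0.115).

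CG45011 (chromosome 2L, 11834086 to 11834497, plus strand) measured 39.6, 45.8, 51.9 and 40.2 in replicates A to D of F2-M18-G25, against 25.8, 25.6, 21.5 and 23.9 in replicates A to D of F2-M25-G25. The log2 fold change was 0.82 (SE 0.15, limma adjusted p = 0.0432), and the call was lost whichever of the 8 libraries was left out (adjusted p = 0.0592 to 0.164). It was 0.78 without the 3 libraries that stand apart (adjusted p = 0.311). CG45011, fok and Bacc overlap Pde1c, neb and Pgk on the opposite strand. The authors counted reads by strand, so that overlapping genes on opposite strands were counted apart.

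**Figure D3:**
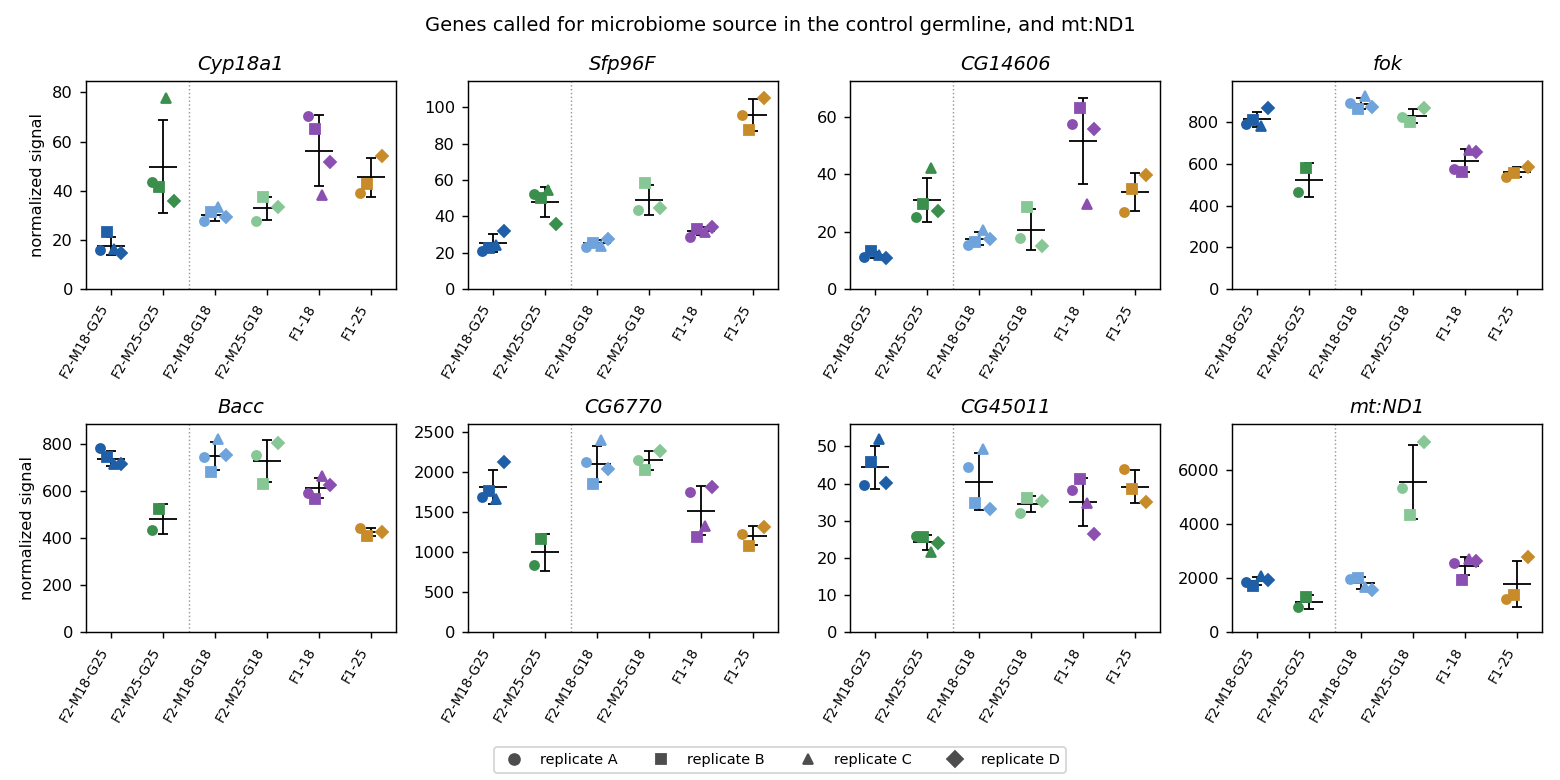
Normalized signal of the 7 called genes and of mt:ND1 in every library (symbols, replicates A to D) with mean and SD (black) for the 6 groups, F2-M18-G25 and F2-M25-G25 left of the dotted line. In fok, Bacc and CG6770 the F2-M25-G25 libraries lie below F2-M18-G25 and below both groups with a cold-history germline, and Sfp96F is lower in each group with the cold microbiome or cold rearing than in its counterpart. F2-M25-G25 shows 2 points where C and D hold calculated values.

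The same genes were then read in the cold-history germline and in F1. Sfp96F was lower in all 3 comparisons, with 23.3, 25.3, 23.9 and 27.8 in replicates A to D of F2-M18-G18 against 43.5, 58.2 and 44.8 in replicates A, B and D of F2-M25-G18 (log2 fold change -0.90, limma adjusted p = 0.0102), and with 28.9 to 34.4 in F1-18 against 87.3 to 105 in F1-25 (-1.53, limma adjusted p = 2.42e-06). The difference between its log2 fold changes in the 2 germlines was 0.01 (95% interval -0.44 to 0.47). With the crossed groups exchanged, the Sfp96F value in the control germline was 0.03 and the call ended. Bacc was also higher in F1-18 (566 to 663) than in F1-25 (408 to 442), a log2 fold change of 0.52 (limma adjusted p = 5.93e-04). In the cold-history germline it measured 679 to 822 in F2-M18-G18 and 629 to 804 in F2-M25-G18 (0.05, 95% interval -0.15 to 0.24).

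The other called genes did not pass the test in either of these comparisons. Cyp18a1 measured 27.5 to 33.2 in F2-M18-G18 and 27.8 to 37.3 in F2-M25-G18, all above the highest F2-M18-G25 library (23.1) and, apart from the one at 37.3, below the lowest F2-M25-G25 library (35.9), and its F1 value was 0.28. CG6770 measured 1851 to 2403 in F2-M18-G18 and 2032 to 2270 in F2-M25-G18, and fok 866 to 929 and 800 to 868. In both genes every library with a cold-history germline was above the 2 measured F2-M25-G25 libraries. A test of the difference between germlines did not call fok (0.55, 95% interval 0.28 to 0.82, limma adjusted p = 0.24) or Cyp18a1 (-1.26, 95% interval -1.90 to -0.62, limma adjusted p = 0.247). Of the 7 genes, 6 had the same sign in the cold-history germline and 4 in F1. Apart from Sfp96F, the cold-history values ranged from -0.18 (CG14606) to 0.20 (CG45011), each with a 95% interval that spanned 0. The share of all genes with the same sign was not counted.

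Close to the threshold lay 3 genes that were chosen for naming after their values were seen. CG13606 measured 667, 584, 436 and 472 in replicates A to D of F2-M18-G25, against 145 and 236 in F2-M25-G25 replicates A and B (log2 fold change 1.52, SE 0.30, limma adjusted p = 0.0809). It measured 351 to 664 in F2-M18-G18 against 197 to 310 in F2-M25-G18 (0.95, limma adjusted p = 0.0985), and 330 to 516 in F1-18 against 35.2 to 96.5 in F1-25 (2.75, limma adjusted p = 1.49e-06). No library overlapped with the other group in any of the 3 comparisons. Zip89B, a zinc transporter of the ZIP family, measured 247, 164, 177 and 210 in replicates A to D of F2-M18-G25, against 87.6 and 82.8 in A and B of F2-M25-G25 (1.19, limma adjusted p = 0.0847). CG12111 measured 76.6 to 100 in F2-M18-G25 against 52.8 to 65.9 in F2-M25-G25 (0.57, limma adjusted p = 0.067) and differed by as much in the cold-history germline (0.56, limma adjusted p = 0.0293).

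At an unadjusted p under 0.05 there were 524 genes higher (4.63%) and 530 lower (4.68%) in F2-M18-G25. Every measured library of F2-M18-G25 lay above every one of F2-M25-G25 in 1019 genes (9.01%) and below in 1061 (9.38%). Such genes made up 26% of the 7150 with 2 measured F2-M25-G25 libraries and 5.28% of the 4164 with 4. Precision set a limit on what could be missed. The 95% interval of the fold change lay within 2-fold in both directions in 10385 genes (91.8%), and 89 genes (0.787%) had an estimated change of more than 2-fold.

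The gene groups of gut function gave no call, and several of their medians followed the libraries that stand apart. Of the 14 Jonah serine proteases tested, digestive enzymes of the midgut, none was called and 13 were lower in F2-M18-G25, with a median log2 fold change of -1.26 beside -0.01 over all genes. Without the 3 libraries the median was -0.02. In F1-18 against F1-25 the median was -3.24 and 10 of the 14 were called lower, where 23.5% of all genes were called in either direction and 12.6% lower. Jon99Fii measured 14.1, 8.84, 7.23 and 1.60 in replicates A to D of F2-M18-G25, against 21.8, 21.5, 226 and 24.3 in replicates A to D of F2-M25-G25 (-2.29, limma adjusted p = 0.344, and -1.01 without the 3 libraries), and it was the 1 Jonah gene without overlap. Of the 4164 genes with 4 measured F2-M25-G25 libraries, 5.28% did not overlap in one direction or the other. Jon65Aiii, the most abundant member, measured 225 to 270 in F2-M18-G25 and 231 and 296 in F2-M25-G25 replicates A and B (-0.06). All 10 gut trypsins were below 0, with a median of -0.57 that became 0.14 without the 3 libraries. AlphaTry, which supplies most of the trypsin signal, measured 463, 460, 479 and 463 in replicates A to D of F2-M18-G25, against 619 and 667 in A and B of F2-M25-G25 (-0.46, limma adjusted p = 0.637). The 14 maltases and amylases, which digest starch and sugars, had a median of -0.18, of which Mal-A1, the most abundant, had -0.16.

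The groups of immune genes gave no call either. None of 9 antimicrobial peptide genes was called. Their median was -0.45, and -0.21 without the 3 libraries. Drs, the antifungal peptide drosomycin, measured 79.2, 70.8, 73.2 and 155 in replicates A to D of F2-M18-G25, against 63.3 and 83.1 in A and B of F2-M25-G25, so that replicate D alone lay above both. Of 14 bomanins and related immune-induced peptides, none was called, 11 were below 0 and the median was -0.29, or -0.37 without the 3 libraries. BomS1 was among the lowest, with 15.7, 9.39, 14.5 and 25.8 in replicates A to D of F2-M18-G25, against 20.4, 32.6, 55.2 and 49.9 in replicates A to D of F2-M25-G25 (-1.16, limma adjusted p = 0.316).

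The 24 genes of peptidoglycan recognition and the Imd pathway had a median of -0.12 and no call. PGRP-SC2, an amidase that degrades peptidoglycan in the gut, measured 14.7, 7.78, 13.7 and 6.37 in replicates A to D of F2-M18-G25, against 12.9, 17.3, 142 and 44.1 in replicates A to D of F2-M25-G25 (-1.62, limma adjusted p = 0.374), where C and D were the high libraries, and -0.31 without the 3 libraries. Rel, which encodes Relish, measured 404, 412, 417 and 445 in replicates A to D of F2-M18-G25, against 547 and 529 in A and B of F2-M25-G25 (-0.36, limma adjusted p = 0.352). In the genome Rel overlaps Nmdmc on the same strand, where counting by strand does not tell these genes apart. Duox measured 145, 150, 147 and 164 in replicates A to D of F2-M18-G25, against 213 and 204 in A and B of F2-M25-G25 (-0.46, limma adjusted p = 0.287). Rel and Duox did not overlap between the groups, as 1061 genes (9.38%) did not in this direction. Each rests on 2 measured F2-M25-G25 libraries, and 26% of the 7150 such genes did not overlap in one direction or the other. The 15 genes of the Toll pathway had a median of 0.15, the 16 of gut redox enzymes 0.09, the 30 glutathione S-transferases 0.01 and the 13 of JAK-STAT signalling and epithelial renewal 0.03, each without a call.

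Metabolic and insulin-related genes did not pass the test either. Thor, the translation repressor 4E-BP that insulin signalling restrains through FOXO, measured 822, 1094, 818 and 843 in replicates A to D of F2-M18-G25, against 261 and 675 in A and B of F2-M25-G25 (1.08, limma adjusted p = 0.324). The 2 F2-M25-G25 libraries differed from each other by more than the nearer of them did from F2-M18-G25. Akt, the kinase downstream of the insulin receptor, measured 437, 475, 366 and 396 against 303 and 320 in the same libraries (0.42, limma adjusted p = 0.301). Over the 21 members of this group the median was 0.10. The group of 9 storage and yolk proteins had a median of 0.64 with replicate D of F2-M18-G25 and -0.07 without it.

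Muscle genes lay mostly above 0. Of 22 contractile and sarcomere genes, 19 were higher in F2-M18-G25 with a median of 0.20 (0.22 without the 3 libraries), none was called and 5 had an unadjusted p under 0.05, beside 4.63% of all genes that were higher at this p. All 22 rest on the 2 measured F2-M25-G25 libraries. In 12 of them every F2-M18-G25 library lay above both of these, and in 1 below both. Of the 7150 genes with 2 measured F2-M25-G25 libraries, 26% did not overlap in one direction or the other. Troponin genes were among the 12. TpnC73F, a troponin C, measured 397, 422, 347 and 427 in replicates A to D of F2-M18-G25, against 286 and 301 in A and B of F2-M25-G25 (0.43, limma adjusted p = 0.413). The gene up, which encodes troponin T, measured 11001, 10602, 9296 and 10768 against 7406 and 8182 in the same libraries (0.42, limma adjusted p = 0.352). Mhc, the myosin heavy chain and the most abundant member, measured 130540 to 151446 in F2-M18-G25 against 148700 and 143000 (-0.05). The same group had a median of -0.20 in the cold-history germline, with 7 of 22 above 0, and of 0.44 in F1, with 12 called higher, where 11% of all genes were called higher.

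Genes of phototransduction and of the accessory gland lay mostly below 0. Of 26 phototransduction genes, 20 were below 0 (median -0.11, -0.13 without the 3 libraries) and none was called. The channel gene trpl measured 628, 691, 822 and 811 in replicates A to D of F2-M18-G25, against 940 and 986 in A and B of F2-M25-G25 (-0.39, limma adjusted p = 0.422), and ninaE, the main rhodopsin, 4554 to 4967 against 5166 and 5046 (-0.10). Of 57 accessory gland and seminal fluid genes, 40 were below 0 with a median of -0.12, and Sfp96F was the 1 call. Over all genes tested 0.0265% were called lower. In F1 the median of the group was -1.05 and 47 were called lower, beside 12.6% of all genes. Acp33A measured 129, 143, 143 and 141 in replicates A to D of F2-M18-G25, against 240 and 181 in A and B of F2-M25-G25 (-0.58, limma adjusted p = 0.222), and -0.69 in the cold-history germline (limma adjusted p = 0.0142). Ebp, an ejaculatory bulb protein and the most abundant member, measured 5319 to 6240 against 6330 and 6144 (-0.14). The 33 testis-specific Mst and spermatid chromatin genes had a median of 0.01.

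**Figure D4:**
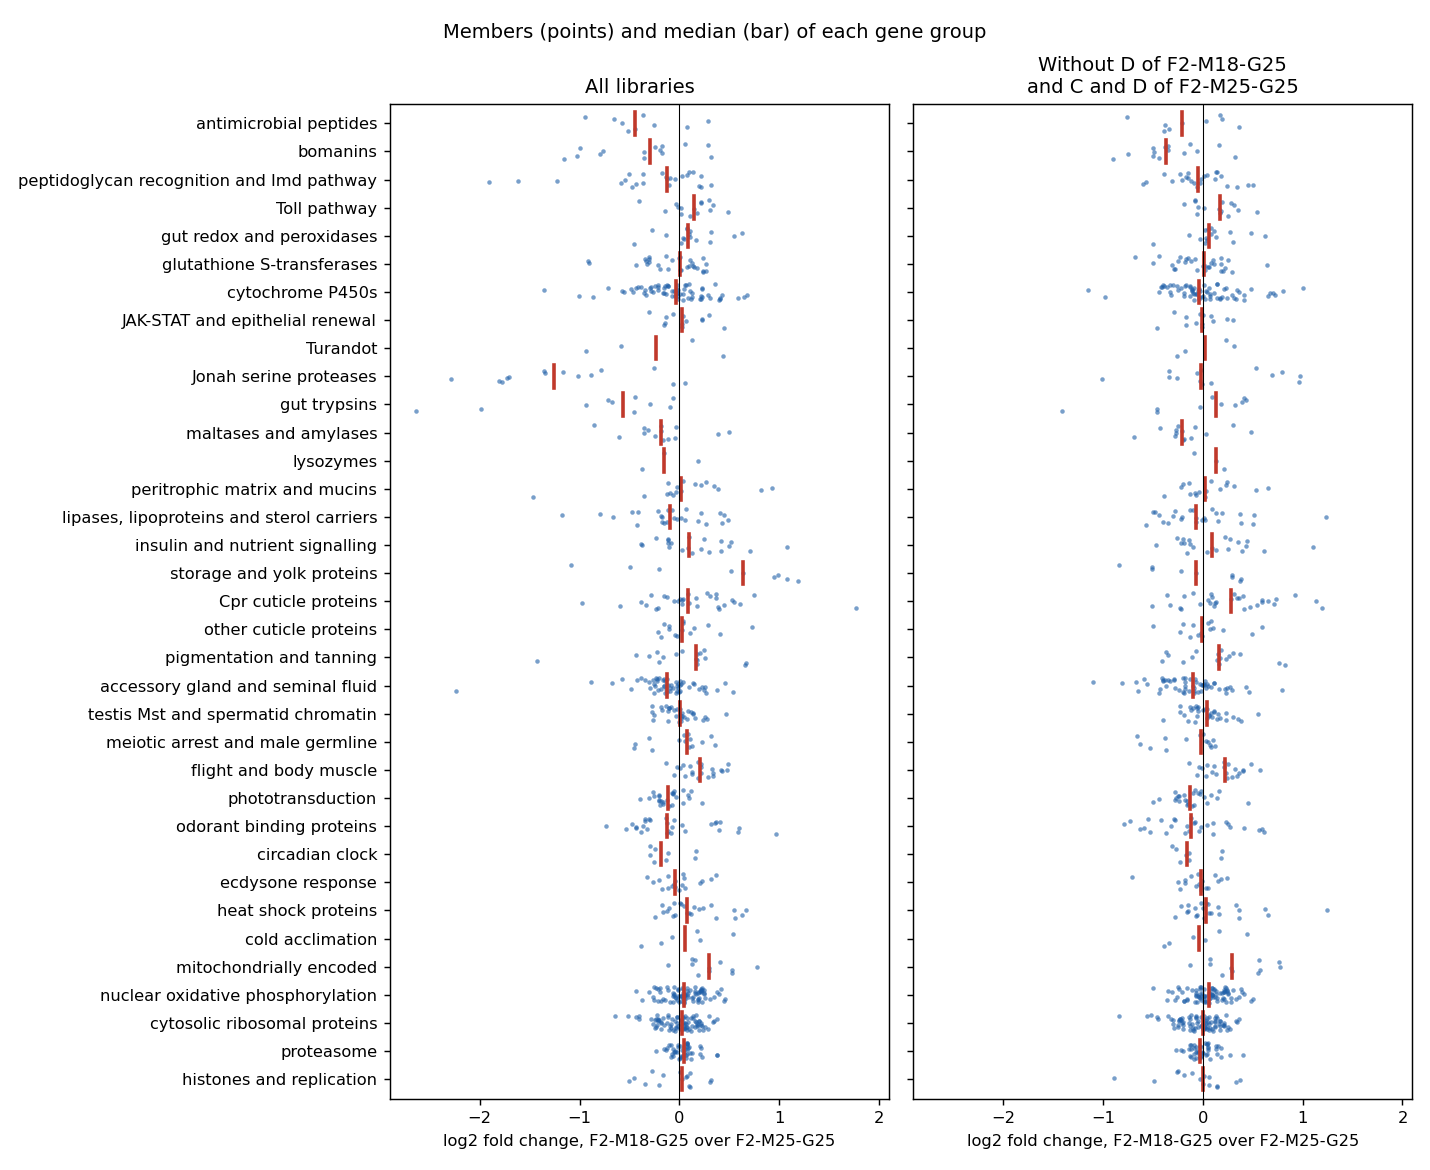
Log2 fold change of F2-M18-G25 over F2-M25-G25 for the members (points) and median (bar) of each gene group, with all libraries (left) and without replicate D of F2-M18-G25 and F2-M25-G25 replicates C and D (right). The medians of Jonah proteases (-1.26 and -0.02), gut trypsins (-0.57 and 0.14) and storage proteins (0.64 and -0.07) move towards 0 between the panels, whereas muscle (0.20 and 0.22) and mitochondrially encoded transcripts (0.30 and 0.29) do not.

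Transcripts encoded in the mitochondrial genome, which specify subunits of the respiratory chain and of ATP synthase, gave calls in the cold-history germline and none in the control germline. In the control germline 10 of 11 were above 0 (median 0.30) and none was called. Their summed signal was 87711, 90703, 97544 and 91462 in replicates A to D of F2-M18-G25, against 74368 and 72912 in A and B of F2-M25-G25. In the cold-history germline the sum was 84221 to 136344 in F2-M18-G18 against 195149 to 297427 in F2-M25-G18, with a median log2 fold change of -1.30 and 9 of 11 called lower, where 0.681% of all genes were called in either direction and 0.371% lower. The F2-M25-G18 libraries were the high ones, and the 3 other F2 groups lay between 72912 and 136344. F2-M25-G18 is one of the crossed groups on which the sources conflict. With these groups exchanged, its libraries would be set against F2-M25-G25 (74368 and 72912), and F2-M18-G18 against 87711 to 97544. The wider gap in the sums would then lie in the control germline.

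The test of the difference between germlines called 1 gene of 11314 (0.00884%), mt:ND1, a subunit of complex I. At an unadjusted p under 0.05 there were 987. mt:ND1 measured 1864, 1719, 2077 and 1926 in replicates A to D of F2-M18-G25, against 940 and 1296 in A and B of F2-M25-G25 (log2 fold change 0.78, SE 0.24, limma adjusted p = 0.313). It measured 1968, 2023, 1681 and 1569 in replicates A to D of F2-M18-G18, against 5340, 4338 and 7052 in replicates A, B and D of F2-M25-G18 (-1.60, limma adjusted p = 0.0013). The difference was 2.38 (95% interval 1.71 to 3.04, limma adjusted p = 0.00341), and the call was lost without replicate A of F2-M25-G25. All 11 mitochondrially encoded transcripts had a positive difference, and 10 of them had an unadjusted p under 0.05 in this test. The other 10 were not called, with a lowest adjusted p of 0.139 in limma. The 85 nuclear-encoded subunits of oxidative phosphorylation had medians of 0.05 in the control germline and -0.27 in the cold-history germline.

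**Figure D5:**
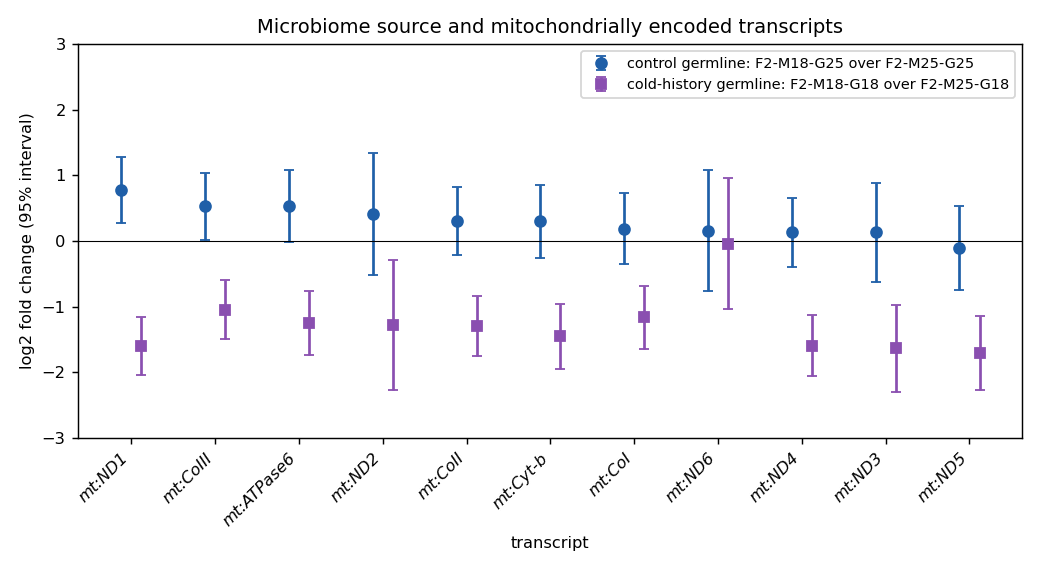
Log2 fold change for microbiome source, with its 95% interval, of the 11 mitochondrially encoded transcripts in the control germline (circles) and in the cold-history germline (squares). mt:ND1 has 0.78 and -1.60, and 10 of 11 transcripts lie above 0 in the control germline against 0 of 11 in the cold-history germline.

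The other comparisons are given for scale. In the cold-history germline 77 genes were called (0.681%), 35 higher and 42 lower in F2-M18-G18. Of the 77, 47 (61%) had the same sign in the control germline, a share that was not counted over all genes. In F1 2660 genes were called (23.5%). Of the 1240 that were higher in F1-18, 65% were above 0 in F2-M18-G25 over F2-M25-G25 (median 0.07), and of the 1420 that were lower, 55.7% were below 0 (median -0.02), beside 48.2% above and 51.8% below 0 over all genes tested. Across genes, which are not independent replicates, log2 fold changes in the control germline correlated with those in F1 at r = 0.27 and with those in the cold-history germline at r = 0.22, with 11314 genes each. The rank correlations were 0.11 with F1 and 0.18 with the cold-history germline, which is the opposite order. Without the 3 libraries that stand apart, r was 0.14 with F1 and 0.13 with the cold-history germline.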

How the data were processed

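The authors removed ribosomal RNA reads, trimmed the others (Trimmomatic 0.32), aligned them with STAR to release 6 of the fly genome, counted uniquely mapped reads per gene and strand (HTSeq 0.6.1) and scaled the libraries by TMM factors in edgeR. What the authors deposited is this normalized signal, which is not made of whole counts, so that limma was used and no count model.

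The analysis took log2(value + 2) of each gene among the 11314 of 12024 that reached 10 in 3 or more libraries. One linear model with a mean for each of the 6 conditions was fitted to the 22 libraries (limma 3.58.1, R 4.3.3, moderated two-sided test with a mean-variance trend). Contrasts were called at a Benjamini-Hochberg adjusted p under 0.05 over all genes tested. All fold changes are on this log2 scale, which understates changes of low values, and relate to the spread between libraries of pooled males, since the labels do not say which libraries came from separate bottles. Entries for F2-M25-G25 replicates C and D that both equal the mean of A and B plus a whole number (tolerance 0.0001) were treated as missing in 7150 genes, and these genes were fitted with the remaining 20 libraries. ± values are SDs of the signal. Genes and gene groups not called are described by their values, and groups by counts and medians beside those of all genes.

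The rule for naming took the called genes without overlap between groups, and the member of each of 35 gene groups with the highest mean and its called members. It also took the genes called in the difference between germlines, and those called in the same direction in F1. Not every gene or gene group under this rule is described in the text. CG13606, Zip89B, CG12111, CG42752 and group members other than these were named after their values were seen. The members of the comparison, the gene groups and the tests were chosen with earlier results of these data known. Gene names were found for 11888 of 12024 identifiers, and coordinates are those of the Ensembl 115 annotation of the same assembly. The model was also run on simulated data with the same spread in every gene and no library that stands apart. That run therefore cannot say how reliable the calls in these libraries are. Alternatives covered the pseudocount, filter, scaling, test, libraries entered, calculated values, replicate block and the exchange of the crossed groups. Figures were made with Python 3.11.15 and matplotlib 3.10.9.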

Additional observations from a re-analysis of the deposited data

Results flagged for a closer look

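One difference between germlines passed its test. The log2 fold change of mt:ND1 for microbiome source was 2.38 higher in the control germline than in the cold-history germline (limma adjusted p = 0.00341).

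In 7 of 52 groups of 4 measured values among the named genes, 1 library lay far from the other 3. Chance gives about 1 in 20 for independent groups. Genes of the same library are not independent, so the rates cannot be compared. All 7 were libraries of F2-M18-G25. In F2-M25-G25 most of the named genes have too few measured values for this comparison. Replicate D was the high one in 5 genes. Fbp1 measured 40990 in replicate D and 3719 to 7782 in the others. Apolpp, the precursor of the main lipoprotein of the haemolymph, measured 10636 against 1881 to 3209 in the others, and Obp99b, an odorant binding protein, 7092 against 367 to 1052. TotA, a stress-induced humoral peptide, measured 293 against 25.2 to 59.4, and Drs 155 against 70.8 to 79.2. Replicate C was the library apart in 2 genes. It was low for achi at 76.0 against 94.2 to 96.1, and high for the clock gene Pdp1 at 1250 against 1091 to 1104.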

How the results depend on the processing

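The count of 7 genes called for microbiome source in the control germline was 35 with F2 libraries only, 29 with the libraries of the 2 groups only, 103 with the calculated values of replicates C and D as in the file, 4 with values scaled to equal library totals, 799 with the crossed groups exchanged and 3 with the 3 libraries that stand apart left out, an alternative chosen after seeing the data. With 1 library left out it ranged from 0 to 7. The count of genes without overlap (2080) was 4329 with the crossed groups exchanged, 3554 without the 3 libraries and 2162 to 3919 with 1 library left out. The 1 gene called in the difference between germlines became 15 with F2 libraries only and 21 with the calculated values as in the file, and ranged from 0 to 1 with 1 library left out. The 77 genes called in the cold-history germline became 322 with F2 libraries only, 145 with the calculated values as in the file, 200 with the crossed groups exchanged and 43 without a mean-variance trend. Sfp96F had a log2 fold change of 0.03 with the crossed groups exchanged. The cause of these differences was not tested. A replicate block on the letters left 0 genes called in the control germline, with 968 at an unadjusted p under 0.05. The letters share no stated origin, and deviations of same-lettered libraries of the 2 groups correlated at -0.10, 0.16, -0.07 and 0.17 for A to D, not the highest of the pairings for every letter. Pseudocounts of 0.5 and 8, no filter, robust limma, limma without a trend and median-of-ratios scaling left the count between 6 and 8. Of the values of single named genes under alternatives, 890 kept their direction and side of the threshold, 60 lost a call, 26 gained one, 35 changed sign without a call and 1 reversed. The depth of each library is uncertain, so no limit from counting error is given for low values.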
